A study of Mus musculus with 13 samples.

Results

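The 10 genes described here are mouse targets of NRF2 for glutathione synthesis, thiol reduction and export. They were chosen by name, with earlier results of these data known, in the authors' deposited tables of differential expression. Together these tables list 1592 genes. The 10 are Gclc, Gclm, Slc7a11, Srxn1, Txnrd1, Prdx1, Nqo1, Abcc1, Sqstm1 and Osgin1, and 9 of them were in at least 1 table. RNA was sequenced from primary cultures of astrocytes, glia that support and supply neurons, taken from wild-type C57BL/6 mice at postnatal days 1 to 3, from the retina and the optic nerve. There were 3 samples with HLM006474, 3 with an inhibitor of RUNX1, 3 with SB431542 and 4 with vehicle, all after 24 h in culture medium with serum. HLM006474 inhibits transcription factors of the E2F family, the RUNX1 inhibitor acts on that transcription factor and its partner CBFB, and SB431542 inhibits the receptor kinases through which TGF-beta and activin signal. Doses are not stated in the labels, and neither is whether samples came from separate cultures or animals, so the spread behind each p-value may be technical.

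NRF2, encoded by Nfe2l2, is a transcription factor that is held by KEAP1 and degraded in resting cells. Oxidants and other reactive compounds modify cysteines of KEAP1, after which NRF2 accumulates, pairs with small MAF proteins and binds antioxidant response elements. Its targets supply glutathione, the main low-molecular-weight thiol of the cell, and the thioredoxin system, which reduces protein thiols. In the brain, astrocytes are the glia best known for this response, and they release glutathione whose building blocks neurons take up.

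Each deposited table compares 1 compound with vehicle and holds only genes with an adjusted p under 0.05 and a change of at least about 1.5-fold. A gene in a table is called listed, and a gene outside it has no value. Fold changes are on the log2 scale, compound over vehicle, and are given as value ± standard error. Values per sample were not analysed here, so the depth of the libraries is unknown and no SD can be given. A change in RNA per cell and a change in the makeup of the culture cannot be told apart in these bulk samples. Of the 12 astrocyte markers, 1 was listed in each table and was lower, Fabp7 for HLM006474 and the RUNX1 inhibitor and Kcnj10 for SB431542. Fabp7, whose protein binds fatty acids, stood at -0.64 ± 0.055 under HLM006474 with a mean normalised count of 18965 over all libraries, in the authors' deposited table. Kcnj10 stood at -0.77 ± 0.037 under SB431542, with a mean count of 23893, in the authors' deposited table. Markers of other cells also moved under HLM006474. All 7 listed genes of the 10 oligodendrocyte lineage markers were lower, and of the 12 microglia and macrophage markers 3 were lower and 1 higher. In the authors' deposited table the macrophage gene Lyz2 stood at 1.08 ± 0.18 and the microglial gene Tmem119 at -1.08 ± 0.070. Of the remaining marker lists, 1 of 6 neuron, 2 of 6 endothelial and mural and 1 of 5 fibroblast markers were listed, all lower. The fibroblast gene Pdgfra and the mural gene Cspg4 are also among the 7 oligodendrocyte lineage genes. The neuron gene Syt1 and the mural gene Rgs5 had mean counts of only 60.4 and 87.8. Over all 15169 genes under HLM006474, 1.42% were listed as higher and 4.22% as lower. Lists this short cannot tell 1 listed gene from those shares. The part of all these markers in the results under HLM006474 on the thiol and glutathione genes was not tested.

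Bases before the transcription start of the thiol and glutathione genes were read for the antioxidant response element, which NRF2 binds. Promoter windows of RefSeq, 250 bases before to 50 after a start on build GRCm38.p6, were found for 8 of the 10 genes, 10 windows in all. The element was searched on both strands as TGACNNNGC and, more widely, as TGANNNNGC, which includes every match of the first form. The 250 bases before the start are shown for 4 genes with the wider matches in capitals. They are Srxn1, which had the largest rise, Osgin1, which holds the same element as Srxn1 on the other strand, Slc7a11, the 1 gene listed for more than 1 compound, and Prdx1, which was in no table. Srxn1 lies at chr2:152105274-152105523 on the plus strand, Osgin1 at chr8:119436897-119437146 on the plus strand, Slc7a11 at chr3:50443614-50443863 on the minus strand and Prdx1 at chr4:116685349-116685598 on the plus strand, all read 5′ to 3′ along the gene.
Srxn1: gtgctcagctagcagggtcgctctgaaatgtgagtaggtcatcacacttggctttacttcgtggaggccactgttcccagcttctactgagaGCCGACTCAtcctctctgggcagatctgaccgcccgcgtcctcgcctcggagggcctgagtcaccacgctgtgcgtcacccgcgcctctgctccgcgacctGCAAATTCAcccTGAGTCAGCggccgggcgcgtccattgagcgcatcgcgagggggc
Osgin1: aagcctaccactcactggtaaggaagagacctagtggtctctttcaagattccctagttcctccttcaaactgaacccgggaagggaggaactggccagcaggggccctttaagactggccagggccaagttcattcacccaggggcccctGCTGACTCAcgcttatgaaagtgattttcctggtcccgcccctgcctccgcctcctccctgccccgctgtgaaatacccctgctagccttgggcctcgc
Slc7a11: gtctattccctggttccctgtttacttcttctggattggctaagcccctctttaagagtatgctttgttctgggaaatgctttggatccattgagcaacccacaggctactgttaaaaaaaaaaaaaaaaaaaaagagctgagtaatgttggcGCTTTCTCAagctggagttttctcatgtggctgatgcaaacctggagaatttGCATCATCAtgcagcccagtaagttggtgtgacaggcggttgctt
Prdx1: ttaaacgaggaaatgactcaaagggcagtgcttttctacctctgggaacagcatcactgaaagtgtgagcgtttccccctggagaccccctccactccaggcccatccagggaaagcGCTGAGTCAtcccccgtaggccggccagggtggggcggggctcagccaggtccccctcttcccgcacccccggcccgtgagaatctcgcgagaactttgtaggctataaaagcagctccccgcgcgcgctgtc

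In Srxn1 the letters TGAGTCAGC stand 45 to 37 bases before the start, written as bases -45 to -37. In Osgin1 the capitals GCTGACTCA at bases -99 to -91 are the same element read on the opposite strand. This element was chosen after the sequences were seen, and 0.414% of all 32851 windows hold it. The Osgin1 window lies inside the gene as annotated by GENCODE, which begins at base 119434124. Whether the RefSeq start behind this window was used cannot be read from gene-level values. In Prdx1 the capitals GCTGAGTCA at bases -133 to -125 read TGACTCAGC on the opposite strand, which fits the narrower form, and 0.454% of all windows hold TGACTCAGC. The narrower form TGACNNNGC was found in windows of 4 of the 8 genes with a window, which were Gclm, Prdx1, Srxn1 and Txnrd1, and in 14.0% of all 27025 genes with a window. The narrower match of Srxn1 lies 29 to 37 bases after the start, outside the bases shown, and its TGAGTCAGC fits the wider form alone. Counted by window, the narrower form was found in 12.4% of all windows, in 19.5% of the 195 windows of genes listed as higher under HLM006474 and in 12.3% of the 585 windows of genes listed as lower. The wider form was found in windows of 6 of the 8 genes and of 45.0% of all genes with a window. By window it was in 41.3% of all, in 42.6% of those of higher genes and in 42.1% of those of lower genes. None of these shares was tested. Neither form was found in the windows of Nqo1 and Sqstm1, both listed as higher, and Prdx1 holds the narrower form although it was in no table. A match describes these letters in this window, not a bound site. Bases outside the windows were not read, so a gene without a match here may hold the element elsewhere.

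HLM006474 raised 9 of the 10 genes, and none was lower. Because the 10 were chosen with earlier results of these data known, the counts and ranks below are descriptions, not independent support. The rises ran between 0.62 for Sqstm1 and 2.12 for Srxn1 in the authors' deposited table. Over all 15169 genes in that comparison's adjustment of p, 1.42% were listed as higher and 4.22% as lower. The median of the 9 log2 fold changes was 1.03, beside 0.80 for all 216 genes listed as higher. At a limit of 2-fold or more, 5 of the 10 genes were higher, where the share over all genes was 0.488%. Of the 10 rising genes with the lowest adjusted p under HLM006474, 4 were thiol and glutathione genes, with Srxn1 first, Gclc at rank 3, Txnrd1 at rank 5 and Gclm at rank 8.

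**Figure D1:**
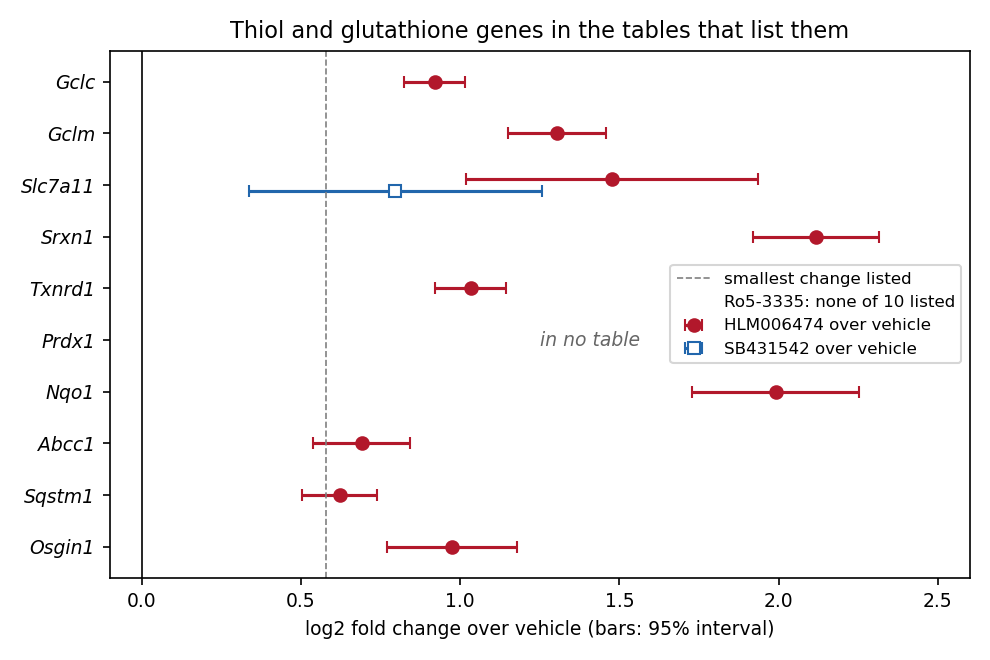
Log2 fold change over vehicle on the horizontal axis for the 10 genes, with bars for the 95% interval from the authors' standard errors, circles for HLM006474 and the square for SB431542, and the RUNX1 inhibitor, under its name in the labels, in the legend alone because its table lists none of the 10. All 9 circles lie at or above 0.62, and the intervals of Sqstm1 and Abcc1 reach below the dashed line at the smallest listed change.

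The genes of glutathione synthesis rose on both subunits of the rate-limiting enzyme and on its substrate supply. Gclc (ENSMUSG00000032350.9, chr9:77754535-77794485, plus strand, coordinates of all genes from GENCODE M21 on GRCm38) encodes the catalytic subunit of glutamate-cysteine ligase, the first step of glutathione synthesis. It rose by 0.92 ± 0.049, or 1.89-fold with a 95% interval of 1.77 to 2.02, in the authors' deposited table (DESeq2 Wald test, adjusted p = 7.94e-75). Gclm (ENSMUSG00000028124.15, chr3:122245557-122270732, plus strand) encodes the modifier subunit, which lowers the enzyme's sensitivity to feedback by glutathione. It rose by 1.31 ± 0.078, or 2.47-fold with an interval of 2.22 to 2.75, in the authors' deposited table (DESeq2, adjusted p = 2.72e-59). The modifier subunit thus stood 0.38 above the catalytic subunit on the log2 scale, and their intervals do not overlap. This difference between genes has no test, because values per sample that would give its error were not analysed here. Exons of Gclm share 244 bases with the pseudogene Gm6061 and 296 bases with the antisense transcript Gm17494, so some reads of these genes could be assigned either way.

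Slc7a11 (ENSMUSG00000027737.10, chr3:49892526-50443614, minus strand) encodes the light chain of the cystine and glutamate antiporter, which imports the cystine that limits glutathione synthesis. Under HLM006474 it rose by 1.48 ± 0.23, or 2.78-fold with an interval of 2.02 to 3.83, in the authors' deposited table (DESeq2, adjusted p = 8.34e-09). Its error was the largest of the 9 and it came last of them by adjusted p, at rank 82 of the 216 rising genes.

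Of the thiol reduction genes, 2 rose and Prdx1 was not listed. Srxn1 (ENSMUSG00000032802.8, chr2:152105516-152111376, plus strand) encodes sulfiredoxin, which repairs peroxiredoxins whose active cysteine has been oxidised to sulfinic acid. It rose by 2.12 ± 0.10, or 4.34-fold with an interval of 3.78 to 4.98, in the authors' deposited table (DESeq2, adjusted p = 1.06e-93), the lowest adjusted p of all 856 genes listed for HLM006474. Txnrd1 (ENSMUSG00000020250.10, chr10:82833951-82897712, plus strand) encodes the cytosolic thioredoxin reductase, a selenoprotein that uses NADPH to reduce thioredoxin. It rose by 1.03 ± 0.057, or 2.05-fold with an interval of 1.89 to 2.21, in the authors' deposited table (DESeq2, adjusted p = 7.79e-70). Its 3 RefSeq promoter windows differ in matches, with the narrower element in 1 of them, and which start was used cannot be read from a gene-level table. Prdx1 (ENSMUSG00000028691.12, chr4:116685544-116700822, plus strand) encodes a cytosolic peroxiredoxin, a substrate of sulfiredoxin. It was in none of the 3 tables, so its change did not pass the limits in any of them, and no value or error is available to say how close it came.

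Nqo1 (ENSMUSG00000003849.8, chr8:107388225-107403206, minus strand) encodes a quinone reductase and is a much used marker of NRF2 activity. It rose by 1.99 ± 0.13, or 3.97-fold with an interval of 3.31 to 4.77, in the authors' deposited table (DESeq2, adjusted p = 4.92e-47). Its interval overlaps that of Srxn1, so these 2 largest rises are not told apart by their errors. Osgin1 (ENSMUSG00000074063.10, chr8:119434124-119446256, plus strand) encodes an oxidative stress induced growth inhibitor. It rose by 0.97 ± 0.10, or 1.96-fold with an interval of 1.71 to 2.26, in the authors' deposited table (DESeq2, adjusted p = 7.58e-19).

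The 2 smallest rises were those of a transporter and an adaptor gene. Abcc1 (ENSMUSG00000023088.17, chr16:14361558-14475737, plus strand) encodes an ABC transporter that exports glutathione conjugates and oxidised glutathione, in astrocytes as in other cells. It rose by 0.69 ± 0.078, or 1.62-fold, with a 95% interval of 0.54 to 0.84 on the log2 scale, in the authors' deposited table (DESeq2, adjusted p = 4.96e-17). Sqstm1 (ENSMUSG00000015837.15, chr11:50199366-50210827, minus strand) encodes p62, a selective autophagy receptor that also binds KEAP1 and so is both a target and a regulator of NRF2. It rose by 0.62 ± 0.060, or 1.54-fold with an interval of 1.42 to 1.67, in the authors' deposited table (DESeq2, adjusted p = 2.91e-23). These rises lie within 2 standard errors of the smallest change the table lists, 1.43 for Abcc1 and 0.70 for Sqstm1, so the table's fold limit, not its p limit, sets how near they came to being left out. Exons of Sqstm1 share 580 bases, 17.3% of its exon bases, with the antisense gene Mrnip. Whether counting used strand is not given in the sources used here, so reads within the shared bases may not be told apart between these 2 genes.

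**Figure D2:**
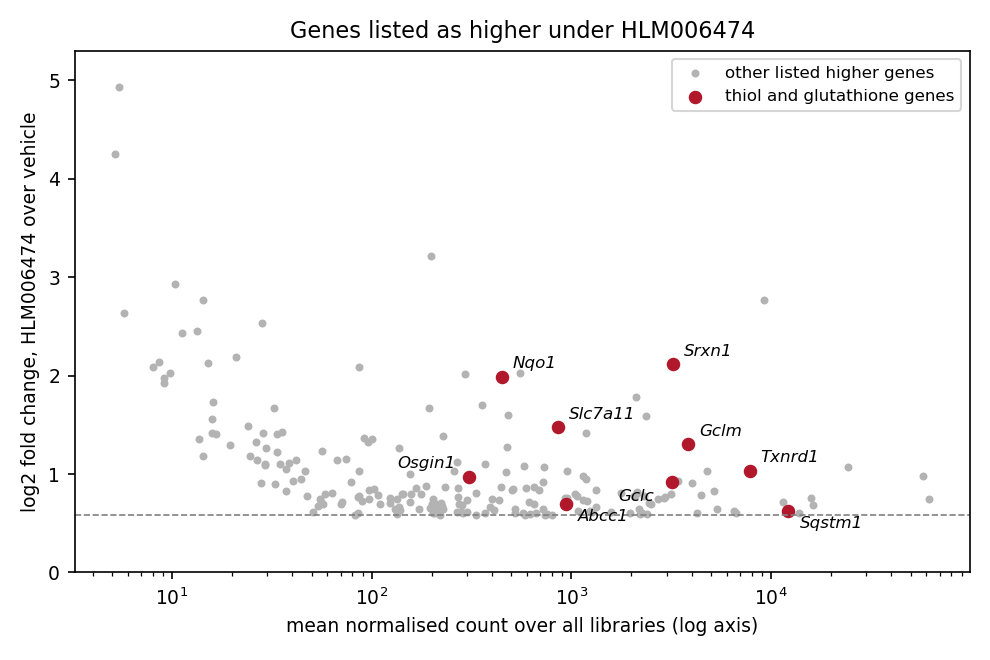
Mean normalised count over all libraries (log axis) against the log2 fold change of HLM006474 over vehicle for the 216 genes listed as higher, with the 9 thiol and glutathione genes in red and the smallest listed change dashed. The 9 genes have mean counts between 306 for Osgin1 and 12113 for Sqstm1, and of the genes with larger fold changes than Srxn1 only Hmox1, at 9262, also has a higher count than Srxn1.

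Levels are given as the mean normalised count per kilobase of exon, over all 13 libraries and so including those where a gene was raised. Sqstm1 was highest at 3609 per kilobase, followed by Srxn1 at 1148, Txnrd1 at 1103, Gclc at 848 and Gclm at 614. Nqo1 followed at 290, Osgin1 at 114, and Abcc1 and Slc7a11 were lowest at 62.0 and 61.6. The order of the middle genes would turn with the rise itself taken out, under an assumption that cannot be checked here. Unlisted changes in the other groups could alter that order. With every group whose table does not list a gene taken to be at the vehicle level, the vehicle level per kilobase would be 888 for Txnrd1, 703 for Gclc and 648 for Srxn1, which puts Srxn1 below both. Sqstm1, with the smallest rise of the 9, was the most abundant per length either way. The exon lengths are unions over GENCODE M21 transcripts, and no error can be given for these levels.

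The errors of the fold changes differed between genes of like count. For each gene the authors' standard error was set beside the median of the other genes listed for HLM006474 whose mean counts lay within 2-fold of its own. Slc7a11, with a mean count of 858, had 2.38 times the median error of its 156 peers, and 98.1% of them had a smaller error. Srxn1 had 1.52 times the median error of its 57 peers, whereas Gclc, at nearly the same count, had 0.739 times. Osgin1 and Abcc1 had smaller errors than the median of their peers, 0.688 and 0.813 times, while Txnrd1, Nqo1 and Sqstm1 were close to it, between 0.988 and 1.07 times, and Gclm stood at 1.19 times. The tables give no spread of single groups, so which samples made it large for Slc7a11 cannot be read from the tables. The peers passed the table's limits, which favour small errors.

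**Figure D3:**
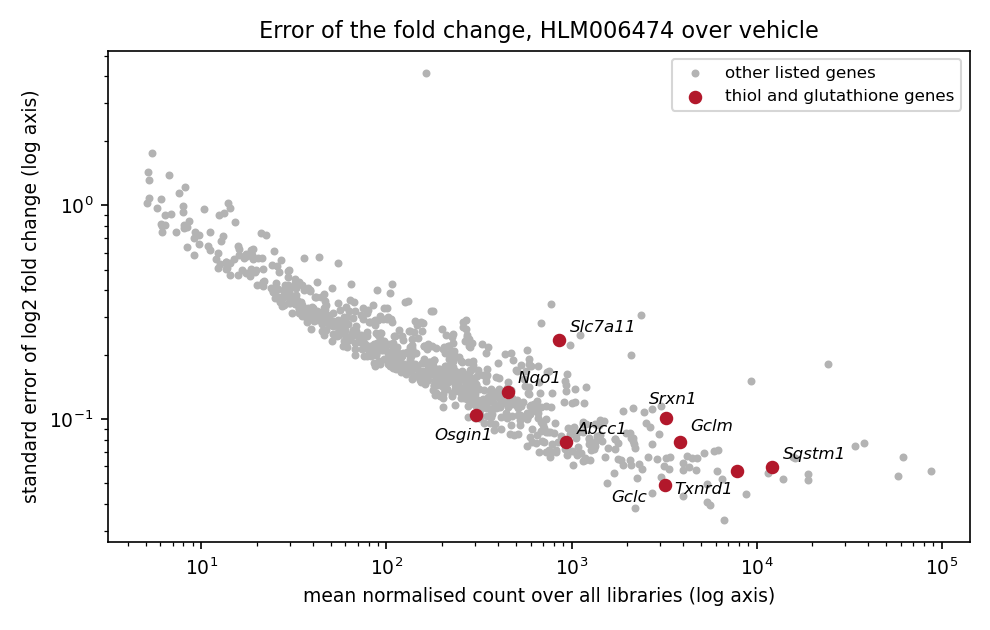
Mean normalised count (log axis) against the authors' standard error of the log2 fold change (log axis) for the genes listed for HLM006474, with the 9 thiol and glutathione genes in red. Slc7a11 stands above the band of genes at its count, with an error of 0.23, and Gclc lies at its lower edge, with 0.049.

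The RUNX1 inhibitor listed none of the 10 genes. Over all 13561 genes in its adjustment of p, 0.605% were listed as higher and 2.32% as lower, so a count of 0 among 10 genes is near the background. SB431542 listed 1 of the 10, Slc7a11, where 2.29% of all genes were listed as higher and 2.64% as lower. Slc7a11 rose under SB431542 by 0.80 ± 0.23, or 1.74-fold with an interval of 1.26 to 2.39, in the authors' deposited table (DESeq2, adjusted p = 0.00552). This is 0.92 standard errors above the smallest change that table lists, and at 2-fold or more, reached by a rise in 1.01% of all genes, it would not be counted. Markers of other cells also moved under SB431542. Of the 12 microglia and macrophage markers 3 were higher and 4 lower, with Tmem119 at -4.00 ± 0.11, Cx3cr1 at -2.21 ± 0.081 and Mrc1 at 2.64 ± 0.11 in the authors' deposited table. Of the other marker lists for SB431542, 2 of 5 fibroblast markers were lower, as was the astrocyte marker Kcnj10. Cspg4, which is in the oligodendrocyte lineage and the endothelial and mural lists, was lower too, and no neuron marker was listed. Their part in the rise of Slc7a11 under SB431542, and in its difference from HLM006474, was not tested.

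Between HLM006474 and SB431542 the log2 fold changes of Slc7a11 differed by 0.68 ± 0.33, with a 95% interval of 0.030 to 1.33. Over the 161 genes in both tables this difference did not pass (2-sided z test with Benjamini-Hochberg adjustment, adjusted p = 0.105), where 32.9% of those genes did. Both comparisons use the same vehicle samples, which makes this error too large. With the error lowered for the shared vehicle samples, taking equal spread in all groups, the difference was 0.68 ± 0.25 and passed (2-sided z test, adjusted p = 0.0173). The share of the 161 genes that passed with the lowered error was not counted, and it can only be as large or larger. The call on Slc7a11 thus depends on how the error is set.

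For the genes listed for HLM006474 alone, a bound can be given on what they did under the other compounds. It takes a gene as tested, which fits their counts of at least 14.2 times the smallest count in either table, and gives it the error it had under HLM006474. Where a gene was in both tables its 2 errors were close, with a median ratio of 0.999 for HLM006474 over the RUNX1 inhibitor and of 1.00 for HLM006474 over SB431542. For all 8 genes outside both other tables, the fold limit and not the p limit then decided, so their log2 fold changes lay within 0.58 of 0 in either direction. For Slc7a11 under the RUNX1 inhibitor the p limit was wider, at 0.60. The rise under HLM006474 exceeded the bound for the RUNX1 inhibitor by 10.8 standard errors of the difference for Srxn1, 7.44 for Nqo1, 6.55 for Gclm, 5.61 for Txnrd1, 4.90 for Gclc, 2.68 for Osgin1 and 2.64 for Slc7a11. It exceeded the bound by only 1.01 for Abcc1 and 0.50 for Sqstm1, so for these 2 genes a rise nearly as large under the RUNX1 inhibitor fits the table. The figures for SB431542 were nearly the same, between 10.8 for Srxn1 and 0.50 for Sqstm1, with Slc7a11 left out because it has a value of its own. These multiples are descriptions, and no p is given for them.

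Other genes of the pathway came from 7 lists chosen with earlier results of these data known. Of 18 other NRF2 targets 12 were higher and none lower under HLM006474, with a median of 0.88 over the 12. None was listed for the RUNX1 inhibitor and 1 was higher for SB431542. Over all genes, 1.42% were listed as higher under HLM006474 and 2.29% under SB431542. In the authors' deposited table for HLM006474, heme oxygenase Hmox1 stood at 2.77 ± 0.15, the ferritin light chain gene Ftl1 at 0.97 ± 0.054, the S-formylglutathione hydrolase gene Esd at 1.03 ± 0.066 and catalase, Cat, at 0.93 ± 0.066. These 4 had the lowest adjusted p of the list (DESeq2), between 3.28e-72 for Hmox1 and 2.15e-41 for Cat. The 12 also included G6pdx, Pgd and Taldo1 of the pentose phosphate pathway, which makes NADPH, the electron source of Txnrd1 and Nqo1. The authors' deposited table gives them log2 fold changes of 0.80 ± 0.060, 0.83 ± 0.069 and 0.79 ± 0.066 in that order. Tkt, of the same pathway, and Me1, another NADPH enzyme gene, were among the 18 but were not listed for any compound.

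Of 31 other genes of glutathione synthesis, use and recycling, 4 were higher and 2 lower under HLM006474. Over all genes 1.42% were listed as higher and 4.22% as lower, so the count of lower genes is near the background. The 4 higher ones were all glutathione transferase genes, with Gstm1 at 0.60 ± 0.052, Gsta4 at 0.78 ± 0.086, the microsomal Mgst1 at 0.76 ± 0.085 and Gsta3 at 2.53 ± 0.41 in the authors' deposited table. Gsta3 rests on a mean count of 28.3. The lower ones were the transferase gene Gstt1, at -0.77 ± 0.14, and Cbs, at -1.02 ± 0.17, in the authors' deposited table. Cbs encodes cystathionine beta-synthase, which opens the route by which cysteine is made from homocysteine. Glutathione synthetase Gss, glutathione reductase Gsr and Slc3a2, the heavy chain that pairs with Slc7a11, were not listed for any compound.

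None of 19 other thioredoxin, peroxiredoxin and glutaredoxin genes was listed for any compound, which is near the background of 1.42% higher and 4.22% lower under HLM006474. Thioredoxin itself, Txn1, the substrate of Txnrd1, was among the 19. None was listed either, again near the background, of 11 genes for NRF2 and its regulators, Nfe2l2, Keap1 and Bach1 included, and of 10 other selective autophagy receptor and LC3 genes beside Sqstm1. Of 8 other ABC transporters, 2 were higher under HLM006474, Abcc4 at 0.98 ± 0.095 and Abcc3 at 0.72 ± 0.11 in the authors' deposited table, both of which export conjugates as Abcc1 does. The breast cancer resistance transporter gene Abcg2 was lower under the RUNX1 inhibitor, at -0.64 ± 0.13 in the authors' deposited table (DESeq2, adjusted p = 2.97e-05). Over all genes, 2.32% were listed as lower under that inhibitor.

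Slc7a11 is also a target of ATF4, the transcription factor of the integrated stress response. Of 17 genes of that response, 5 were higher under HLM006474, 1 under the RUNX1 inhibitor and 3 under SB431542, which also had 1 lower. Over all genes, the shares listed as higher were 1.42%, 0.605% and 2.29% in that order, and 2.64% were lower under SB431542. A count of 1 in 17 is too small to set apart from such shares. Atf3, a stress-induced transcription factor gene, stood at 1.03 ± 0.091 under HLM006474 in the authors' deposited table. Trib3, a pseudokinase gene induced by ATF4, was listed under all 3 compounds, at 1.15 ± 0.29 for HLM006474, 1.05 ± 0.29 for the RUNX1 inhibitor and 1.79 ± 0.29 for SB431542 in the authors' deposited tables. Their part in the rise of Slc7a11 was not tested.

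**Figure D4:**
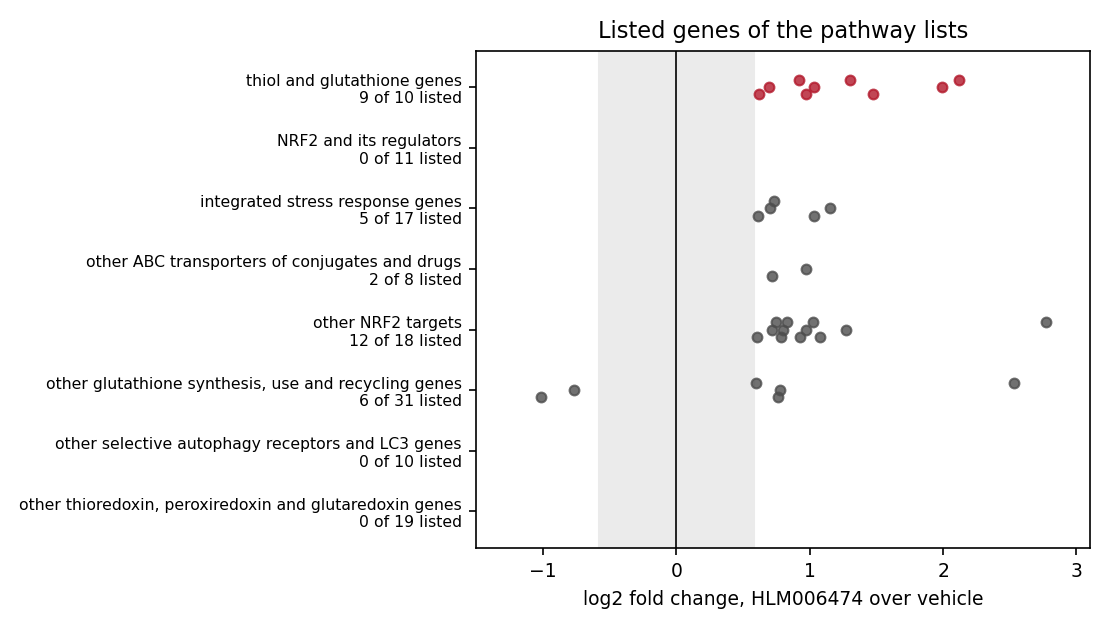
Log2 fold change of HLM006474 over vehicle (horizontal axis) for the listed genes of the 10 thiol and glutathione genes, in red, and of the 7 other lists, in grey, 1 point a gene, with small vertical offsets for legibility. The shaded range holds changes too small for the table, and only the glutathione list has points on the lower side, Cbs and Gstt1.

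The genes whose pattern was most like that of the 9 were taken as those listed as higher for HLM006474 and in neither other table, as 8 of the 9 were. Of the 216 genes listed as higher, 148 had this pattern, or 68.5%. The 5 of lowest adjusted p that are none of the 10 were Hmox1, Ftl1, Slc30a1, Esd and Alas1. The zinc exporter gene Slc30a1 stood at 0.74 ± 0.045 and Alas1, the first enzyme of heme synthesis, at 0.95 ± 0.064 in the authors' deposited table. Esd and Ftl1 lay closest to the members' median of 1.03, at 1.03 and 0.97, and Hmox1 lay 1.74 above it on the log2 scale. The likeness rests on 3 comparisons that share their vehicle samples.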

How the data were processed

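RNA-seq libraries of 13 samples were compared by the authors, and the 3 files are the authors' deposited tables of those comparisons. Per the submitters' processing notes, CASAVA 1.8, STAR 2.7 and DESeq2 1.30.1 were used with build GRCm38. In the sources used here the read counter, annotation and strand setting are not given. The deposited mean normalised count is a signal averaged over libraries, per the file headers. The log2 fold change and its standard error, the Wald score, and the p-value with its adjusted p-value are the authors', per the file headers. Mean counts were identical across tables, as from 1 fit of all groups.

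The genes and lists were chosen with earlier results of these data known. Tests for counts could not be run, so no gene was tested anew against vehicle. The number of genes tested was found from the ratio of p to adjusted p, as the number making 68.0%, 68.7% and 67.1% of ranks whole within 0.02 for HLM006474, the RUNX1 inhibitor and SB431542, against at most 15.3% for other numbers that are no multiple of it. Differences between compounds used a 2-sided z test over genes in both tables. The scripts, in Python 3.11.15 with SciPy 1.17.1, were tested on simulated data. All 10 genes are named, with at most 4 of lowest adjusted p per list except where the text lists more. The pentose phosphate genes of the NRF2 list, and the unlisted genes, were picked for naming after their values were seen. Alternatives were stricter limits on p, fold, mean count and error, another error for differences, a wider motif and, added after the data were seen, a shorter promoter window.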

Additional observations from a re-analysis of the deposited data

How the results depend on the processing

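No paired analysis was possible because the tables hold no values per sample, and for the same reason leaving out replicates, another normalisation and edgeR were not run. Of 16 alternatives 12 gave the same count or one within 1.5 times, 4 of them for the RUNX1 inhibitor, where the count was 0 throughout. The 9 genes listed for HLM006474 remained 9 with an adjusted p under 0.01 and with a mean count of at least 100, and became 7 when the rise had to pass the fold limit by 2 standard errors, which left out Abcc1 and Sqstm1. At 2-fold or more they became 5, since Gclc, Osgin1, Abcc1 and Sqstm1 rose less than that. The 1 gene listed for SB431542, Slc7a11, became 0 at 2-fold or more and 0 when it had to pass the fold limit by 2 standard errors. The difference of Slc7a11 between HLM006474 and SB431542 gave 1 call with the error lowered for the shared vehicle samples and 0 without. The antioxidant response element was found in 4 genes, in 6 with the wider motif and in 3 with the 250 bases before the start alone. Depth is unknown from these files, and changes under about 1.5-fold cannot be seen in them.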

Other observations

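Beside Slc7a11, 1 other NRF2 target of the lists was listed for 2 compounds. Blvrb, which encodes biliverdin reductase B, stood at 1.28 ± 0.13 under HLM006474 and 0.74 ± 0.13 under SB431542 in the authors' deposited tables. The difference of 0.54 ± 0.18 passed over the 161 genes in both tables (2-sided z test, adjusted p = 0.00825), as did 32.9% of those genes. It also passed with the error lowered for the shared vehicle samples (2-sided z test, adjusted p = 0.000207), for which no share was counted. Such a call therefore does not set Blvrb apart. In contrast Atf3, at 1.03 ± 0.091 under HLM006474 and 1.02 ± 0.091 under SB431542 in the authors' deposited tables, had a difference of 0.013 with a 95% interval of -0.24 to 0.26. For Trib3 the log2 fold change of HLM006474 minus that of SB431542 was -0.64, with a 95% interval of -1.44 to 0.16 (2-sided z test, adjusted p = 0.243). With the error lowered for the shared vehicle samples the interval of Trib3 was -1.25 to -0.034. That excludes 0, but the difference did not pass after adjustment (2-sided z test, adjusted p = 0.0795). Chac1, which encodes a glutathione-degrading enzyme induced by ATF4, was listed for SB431542, at 0.63 ± 0.24 in the authors' deposited table, and for no other compound. It only just passed, with an adjusted p of 0.0483 (DESeq2), a mean count of 93.5 and a smallest listed change of 0.58. It was the 1 gene listed for SB431542 of the 31 other glutathione genes, where 2.29% of all genes were listed as higher.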
